A study of Mus musculus with 17 samples.

Results

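Gene expression was compared between livers of mice ablated of aSMA-expressing cells during carbon tetrachloride injury and livers of healthy mice. The comparison uses 7 of the 17 Illumina expression arrays of the series. The 3 aSMA ablated arrays carry the label tk aSMA +, were treated with carbon tetrachloride (CCl4) and are labelled as CCl4-induced fibrosis. The 4 healthy arrays are labelled tk No and received no treatment, so injury and ablation differ together between the groups. Side values come from 6 arrays of CCl4 liver without the transgene (tk Neg) and 4 arrays of FSP1 ablated liver (tk FSP1 +, CCl4). Every group other than healthy received CCl4. The labels give no age, strain, sex or dose, and do not say whether arrays came from separate animals, so the p-values measure the spread between these arrays, which may be technical. The labels also do not spell out tk. In mouse lines of this kind it commonly stands for a viral thymidine kinase driven by the named promoter, which kills dividing cells of that type when ganciclovir is given.

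CCl4 is turned into a toxic radical by cytochrome P450 enzymes of pericentral hepatocytes, the cells around the central vein, which die and are replaced by division. Hepatic stellate cells next to them leave their resting, vitamin A storing state, take on contractile proteins such as alpha smooth muscle actin (aSMA, gene Acta2) and become the main source of scar collagen. Macrophages recruited from blood monocytes clear debris and also break down scar matrix. The comparison asks how much of this injury picture was present in liver that had lost aSMA-expressing cells.

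All signals are given as log2 of background-corrected, quantile-normalized intensity, and each difference is aSMA ablated minus healthy on that scale unless another pair is named. Between-array normalization was needed because the deposited values of the healthy arrays had upper quartiles of 63.7 to 65.7, against 165.4 to 178.8 on the other 13 arrays. On the 7 arrays, 13780 to 16279 of 25697 probes were above background. After normalization, healthy arrays correlated at 0.972 to 0.994 with each other over all tested features, aSMA ablated arrays at 0.987 to 0.992, and arrays of the 2 groups at 0.939 to 0.966. The liver label matched its markers: Apoa1 and Ttr, plasma proteins secreted by hepatocytes, lay between 14.25 and 14.61 on all 7 arrays. Of 5 measured exocrine pancreas genes 2 fell and none rose: Cela1, a pancreatic-type elastase, measured 10.82, 10.92, 10.65 and 10.85 in healthy and 8.94, 8.54 and 8.62 in aSMA ablated liver (-2.11, SE 0.22, adjusted p = 2.42e-05; -1.29 with the Y-linked signal as a block in the fit), and the amylase Amy2a5, named after its values were seen, fell by 0.62 (adjusted p = 0.0384), a call kept in 9 of 22 alternative settings and not with the Y-linked block (adjusted p = 0.192). None of the 3 measured adipocyte and muscle genes passed by limma.

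aSMA ablated liver differed from healthy liver at 2909 of 13092 features (22.2%) by limma at an adjusted p under 0.05, of which 1434 (11.0%) were higher and 1475 (11.3%) lower. Of these, 428 were at least 2-fold higher and 144 at least 2-fold lower, and the median difference over all features was -0.01. The values of the 2 groups did not overlap at 4314 features (33.0%). Of the features that rose, 123 were above background on no healthy array, and 39 of those that fell were above background on no aSMA ablated array. These 2 counts do not measure size and cannot be compared. The filter kept probes above background on any 3 of the 17 arrays, and 13 of these were CCl4-treated. Healthy arrays also had fewer probes above background, 13780 to 14687 against 15616 to 16279 on aSMA ablated arrays. Between-array scaling set the balance of directions: 49.3% of the called features were higher after quantile normalization, 86.3% with each array centred on its median, 32.8% with arrays scaled to a common upper quartile and 99.4% on the deposited scale. Under these last 3 scalings the median over all features was 0.40, -0.08 and 0.60. On the deposited scale 8627 of 13092 features were called higher and 53 lower, and with median centring 6501 and 1028. List counts given below for these 2 scalings are to be read against those shares. The count fell to 1640 without aSMA ablated array 2 and lay between 2211 and 3538 when any other 1 of the 7 arrays was left out.

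The arrays also differed in sex-linked transcripts, and this applies to every difference from healthy liver given here. Eif2s3y, a gene of the Y chromosome, lay at 9.18 to 9.31 on the 4 healthy arrays and at 5.70 to 5.71 on the 3 aSMA ablated arrays. Xist, the RNA that silences an X chromosome in females, lay at 5.69 to 5.75 on healthy arrays and at 8.29, 8.77 and 9.34 on aSMA ablated arrays. Within the 7 arrays, sex-linked signal and group cannot be told apart. CCl4 arrays 5 and 6 had Eif2s3y at 9.45 and 9.46, as healthy arrays did, and CCl4 arrays 1 to 4 had it at 5.68 to 5.76. Xist was at 7.86, 8.27 and 8.44 on CCl4 arrays 1 to 3 and at 5.84, 5.81 and 5.91 on CCl4 arrays 4 to 6, so CCl4 array 4 was low in both transcripts. A fit of all 17 arrays with the Y-linked signal as a block, which reads the effect of the signal from these CCl4 arrays, called 1382 features. CCl4 arrays 5 and 6 were also high in the Alb probe described below, and of CCl4 arrays 1 to 4 only array 4 was. This fit therefore mixes the Y-linked signal in part with the split by the Alb probe. Sex-linked transcripts aside, it is given where it ends the call of a named gene that passed, or moves the value of such a gene by over 1.5 times. For genes that did not pass and for gene lists it is given only in part, so its absence there does not mean that the block left them unchanged.

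**Figure D1:**
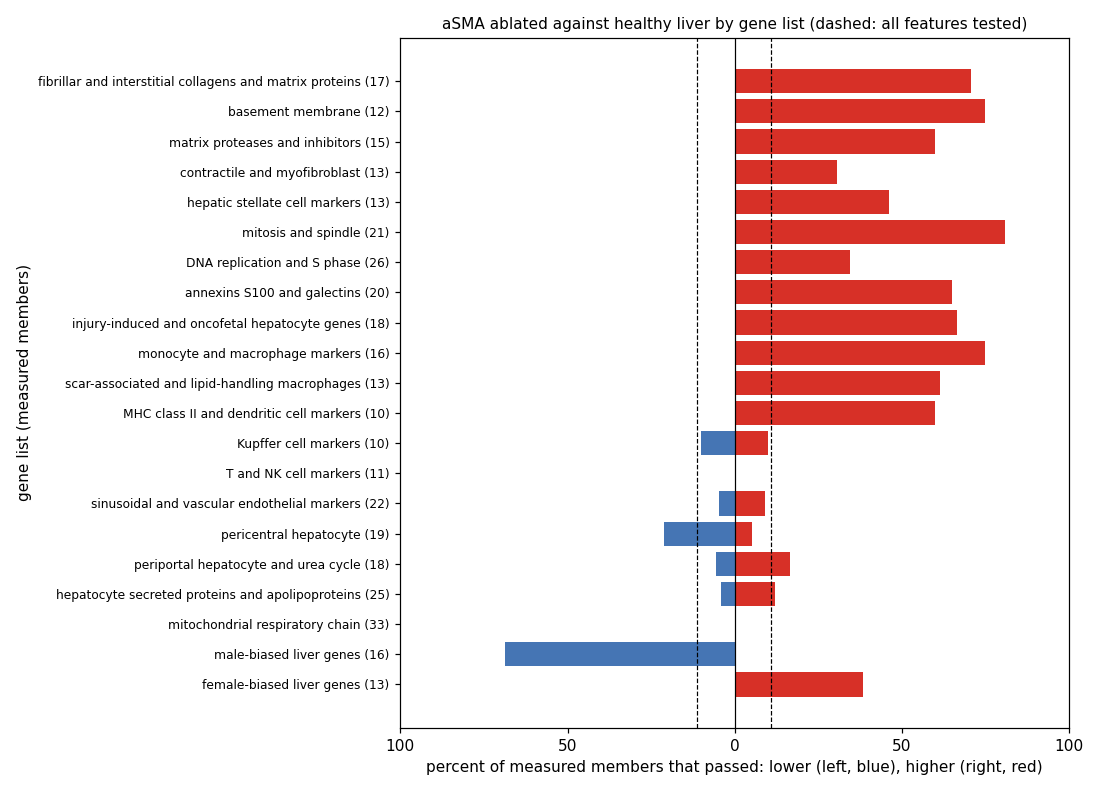
Percent of the measured members of 21 gene lists that passed in aSMA ablated against healthy liver, with higher members to the right in red and lower members to the left in blue. The number of measured members is in brackets and the dashed lines mark all features tested, 11.0% higher and 11.3% lower. Mitosis, macrophage and injury-induced hepatocyte lists and 3 of the 5 matrix lists reach 60 percent or more to the right, T and NK cell markers and the mitochondrial respiratory chain have no bar, and male-biased liver genes reach furthest to the left.

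Signals of the marker of the ablated cells overlapped between aSMA ablated and healthy liver. Acta2 measured 7.39, 8.51, 7.80 and 6.82 on the healthy arrays and 7.62, 9.25 and 7.34 on the aSMA ablated arrays, so the groups overlapped, with array 2 the highest of the 7. The difference was 0.43 (standard error, SE, 0.54; adjusted p = 0.61), and its direction was not settled, at -0.16 without aSMA ablated array 2 and -0.02 with the Y-linked block. It reached 0.80 on leaving out another array, and 1.67 (adjusted p = 0.104) with the Alb probe signal, described below, as a block. Acta2 passed as higher in 1 of 22 alternative settings. A rise over healthy liver is therefore not excluded. In CCl4 liver the gene lay at 9.09 to 11.29. aSMA ablated minus CCl4 was -2.27, with a 95% interval of -3.33 to -1.21 before adjustment and an adjusted p of 0.106. In bulk tissue, fewer cells of a type and less RNA per cell cannot be told apart.

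Other contractile genes gave a mixed picture. Of the 13 measured contractile and myofibroblast genes, 4 rose and none fell in aSMA ablated liver, with a median difference of 0.05 (2 rose without aSMA ablated array 2 and 1 with the Y-linked block), against 8 that rose in CCl4 liver, where 16.2% of all features rose and 17.3% fell against the same healthy arrays. Vim, the mesenchymal intermediate filament vimentin, measured 6.38, 7.19, 6.74 and 6.33 in healthy and 7.94, 9.11 and 8.30 in aSMA ablated liver. All 3 ablated arrays lay above all 4 healthy ones, and the difference was 1.79 (SE 0.32, adjusted p = 0.00132). Tpm1, a tropomyosin of actin filaments, rose by 1.5 (SE 0.28, adjusted p = 0.00163; adjusted p = 0.0925 with the Y-linked block), and the actin-binding proteins Actn1 and Cnn2 rose by 0.62 and 0.39. Neither passed with the Y-linked block (0.11 and 0.49, adjusted p of 0.822 and 0.0667) or without aSMA ablated array 2 (adjusted p of 0.144 and 0.0995), and Actn1 kept its call in 13 of 22 alternative settings. Tagln and Myh11, genes of contractile cells, were above background on no healthy array and differed by 0.05 and 0.04, and Des, the stellate cell filament desmin, differed by -0.04, all 3 without passing. S100a4, which encodes FSP1, differed by -0.12 (adjusted p = 0.299).

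Markers of stellate cells as a lineage were higher than in healthy liver in part. Of 13 measured stellate markers, 6 rose and none fell, with a median difference of 0.29, and 3 rose without aSMA ablated array 2 or with the Y-linked block. Reln, a secreted glycoprotein made by stellate cells, measured 11.03, 10.51, 10.35 and 10.07 in healthy liver and 12.41, 12.38 and 12.19 in aSMA ablated liver. The groups did not overlap and the gene rose by 1.83 (SE 0.27, adjusted p = 0.000343). Cygb, the stellate globin cytoglobin, rose by 1.20 and Pdgfrb, the growth factor receptor of activated stellate cells, by 1.03, the second with an adjusted p of 0.233 in the Y-linked block. Lrat, the enzyme that stores vitamin A, was above background on 1 of 4 healthy and on 3 of 3 ablated arrays and rose by 0.57 (SE 0.16, adjusted p = 0.0166). It was at 0.98 with the Y-linked block and lost the call without aSMA ablated array 2 (0.42, adjusted p = 0.113). Of 10 measured portal fibroblast and mesothelial markers 3 rose, among them the mesothelial transcription factor Wt1 (1.49; 1.05 with the Y-linked block, adjusted p = 0.0894). The count was 1 with that block and without aSMA ablated array 1, healthy array 3 or healthy array 4.

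Scar collagen transcripts were above healthy liver. Of 17 measured fibrillar and interstitial matrix genes, 12 rose and none fell, with a median difference of 1.20. The count kept its direction under every between-array scaling tried, with 8 to 16 members higher and none lower. On the deposited scale this says little, because only 53 of 13092 features were called lower there. Col1a1, the main chain of collagen I, measured 5.79, 5.73, 5.74 and 5.75 on the healthy arrays, none above background, and 8.43, 9.58 and 7.91 on the ablated arrays. All 3 ablated arrays stood far above the healthy ones. Counting the healthy arrays at the lowest signal above background, Col1a1 was at least 6.80-fold higher (adjusted p = 0.000126). In CCl4 liver it lay at 8.15 to 9.60, and aSMA ablated minus CCl4 was -0.17 with a 95% interval of -0.91 to 0.57.

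Col3a1, a fibrillar collagen laid down with collagen I, measured 6.07, 6.65, 6.32 and 6.11 against 7.89, 8.12 and 7.32, and rose by 1.49 (SE 0.30, adjusted p = 0.00284), and by 2.36 with the Y-linked block. Col6a1, of the microfibrillar collagen VI around cells, measured 7.07, 7.33, 6.79 and 6.64 against 9.40, 10.02 and 8.77, and rose by 2.44 (SE 0.28, adjusted p = 4.14e-05). Sparc, a collagen-binding glycoprotein, measured 9.20, 9.01, 8.76 and 8.76 against 10.87, 11.40 and 10.34, and rose by 1.94 (SE 0.32, adjusted p = 0.000736). In each of these genes array 2 was the highest and array 3 the lowest of the ablated arrays, and no ablated array reached down to a healthy one. Col1a2, the partner chain of Col1a1, had signals of 5.91 to 5.99 in healthy and 5.87 to 6.22 in ablated liver on its probe, close to background, and did not pass (0.12, adjusted p = 0.369). Ccn2, the matricellular growth factor CTGF, lay at 10.66, 8.64, 9.36 and 9.36 against 10.71, 10.67 and 10.74 and did not pass either (1.20, adjusted p = 0.0755).

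**Figure D2:**
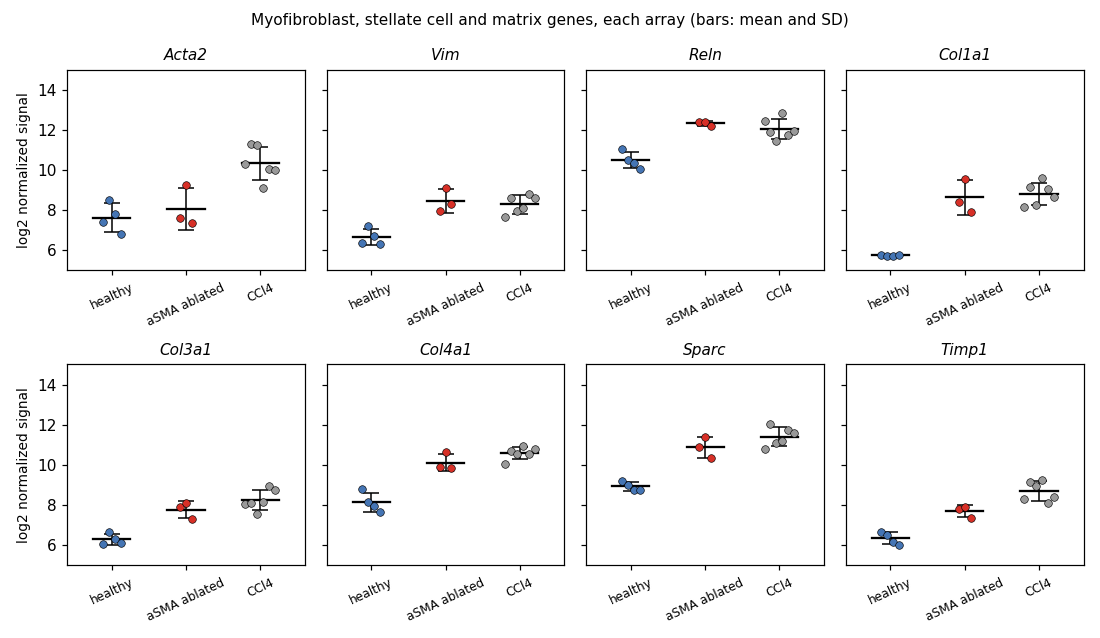
Log2 normalized signal of 8 genes on each healthy, aSMA ablated and CCl4 array, with the mean and standard deviation of each group. Acta2 of the ablated arrays overlaps healthy liver, while all 3 ablated arrays of Col1a1, Col3a1, Col4a1, Sparc, Reln, Vim and Timp1 lie above all 4 healthy arrays.

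Basement membrane genes moved with the collagens. Of 12 measured members 9 rose and none fell, with a median of 0.75. Nid1, which links laminin to collagen IV, measured 7.36, 7.08, 7.08 and 7.06 against 9.11, 10.50 and 9.58 and rose by 2.59 (SE 0.33, adjusted p = 9.25e-05). Col4a1, a chain of collagen IV, measured 8.79, 8.13, 7.96 and 7.63 against 9.88, 10.63 and 9.84 and rose by 1.99 (SE 0.27, adjusted p = 0.000179). In both genes the groups were apart on every array. Hspg2, the proteoglycan perlecan, rose by 1.33 (SE 0.16, adjusted p = 6.89e-05). Of 11 elastic fibre and small proteoglycan genes 6 rose and 1 fell, and the proteoglycans Lum, Bgn and Dcn, which bind collagen fibrils, rose by 1.61, 1.05 and 0.93. With the Y-linked block these last 3 did not pass (adjusted p of 0.117, 0.19 and 0.0777), and 3 of the 11 rose.

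Enzymes that mature and remodel collagen rose as well. Of 17 collagen processing and crosslinking genes 9 rose and 1 fell, and of 15 matrix proteases and their inhibitors 9 rose and none fell. With the Y-linked block 4 and 5 rose. Pcolce, which speeds the trimming of procollagen, measured 6.74, 6.37, 6.48 and 6.43 against 7.81, 8.12 and 7.89 and rose by 1.43 (SE 0.20, adjusted p = 0.000255). Loxl1, a crosslinking oxidase, rose by 1.82 (adjusted p = 0.0686 with the Y-linked block) and Serpinh1, the collagen chaperone HSP47, by 1.0. Mmp2, a gelatinase, measured 7.04, 7.87, 7.08 and 6.55 against 9.67, 9.38 and 8.85 and rose by 2.16 (SE 0.36, adjusted p = 0.000845). Mmp12, the elastase of macrophages, measured 5.71, 7.91, 5.77 and 5.72 against 8.59, 8.44 and 8.93, and rose by 2.37 with healthy array 2 standing apart. Mmp13, the collagenase of scar resolution in mice, lay at 6.0 to 6.57 against 6.96 to 7.63 and rose by 1.0 (SE 0.31, adjusted p = 0.0311), losing the call in 9 of 22 alternative settings, among them the Y-linked block (1.16, adjusted p = 0.142) and the fits without aSMA ablated array 1 or 3 or healthy array 1, 3 or 4 (0.83 to 1.03).

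Timp1, which inhibits these proteases, measured 6.66, 6.53, 6.16 and 6.03 in healthy and 7.81, 7.92 and 7.36 in aSMA ablated liver. The gene rose by 1.36 (SE 0.31, adjusted p = 0.00594), and by 0.70 with an adjusted p of 0.322 in the Y-linked block. In CCl4 liver Timp1 lay at 8.11 to 9.24, above all 3 ablated arrays, and the difference of -0.99 (95% interval -1.60 to -0.38 before adjustment) did not pass (adjusted p = 0.197). Of 15 measured TGF-beta ligands, receptors and targets 7 rose and none fell, against 15 that rose on the deposited scale. Tgfbr2, the type II receptor, measured 8.22, 7.95, 7.99 and 7.92 against 9.64, 10.37 and 9.96 and rose by 1.98 (SE 0.24, adjusted p = 6.52e-05). Tgfbi, a target named for its induction by TGF-beta, rose by 1.13. Tgfb1 itself, the ligand, lay at 6.62 to 7.06 against 7.21 to 7.45 and narrowly did not pass (0.47, adjusted p = 0.0511). It did pass in 11 of 22 alternative settings, among them the Y-linked block (1.05, adjusted p = 0.00121).

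Genes of mitosis were raised in aSMA ablated liver. Of 21 measured mitosis and spindle genes, 17 rose and none fell, with a median difference of 1.66. The Y-linked block left 7 higher and none lower, with a median of 1.04. Prc1, which bundles microtubules of the central spindle, measured 6.13, 5.90, 6.32 and 6.22 in healthy liver and 9.14, 10.18 and 9.68 in aSMA ablated liver. No array of the 2 groups overlapped, and Prc1 rose by 3.53 (SE 0.52, adjusted p = 0.000343), which is 11.5-fold. Cdc20, the activator of the anaphase-promoting complex, measured 5.88, 6.05, 6.53 and 6.57 against 8.89, 9.18 and 8.85 and rose by 2.72 (SE 0.49, adjusted p = 0.00145). With the Y-linked block Prc1 rose by 2.71 (adjusted p = 0.037) and Cdc20 differed by 1.57 without passing (adjusted p = 0.146). Cdk1, the kinase that drives entry into mitosis, measured 5.78, 5.84, 5.80 and 6.0 against 7.55, 8.89 and 8.23 and rose by 2.37 (SE 0.35, adjusted p = 0.000351). Tpx2, Cdca8, Ube2c and Ccna2, named here after their values were seen, differed by 0.63, 0.45, 0.14 and 0.02 without passing, and their probes were above background on 0, 2, 0 and 0 of the 4 healthy arrays.

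The promoters of the mitosis genes share letters already known from late cell cycle genes. Their frequency therefore describes the list and not a response in these livers. The cell cycle genes homology region, TTTGAA, is known as a contact of the protein complexes that restrict transcription to late cell cycle phases, and CCAAT as the box bound by NF-Y. Promoters of 300 bases, from 250 before to 50 after the RefSeq start (GRCm38.p6), were listed for 17 of the 21 measured members. TTTGAA was found on either strand in 15 of these 17 (88.2%), against 1490 of 9698 (15.4%) of all tested genes with a listed promoter. It was in 13 of the 15 listed promoters of members that rose, and also in those of Cdca8 and Ube2c, which did not pass. CCAAT was found on either strand in 14 of 17 (82.4%), against 42.6% of all tested genes, and both motifs together in 14 of 17 against 7.44%. Among 24 promoters of DNA replication genes TTTGAA was found in 3 (12.5%) and among 13 of fibrillar matrix genes in 3 (23.1%). Birc5 and Nusap1, which rose by 2.34 and 2.27, had neither motif in this window. These matches describe letters and are no evidence of binding. The promoters of the 3 genes described above are shown 5′ to 3′ on the gene's strand because each holds both motifs close to the start, with matches in capitals, TTTGAA as such and CCAAT as CCAAT or, on the opposite strand, ATTGG.
Prc1, chr7:80294201-80294500, plus strand: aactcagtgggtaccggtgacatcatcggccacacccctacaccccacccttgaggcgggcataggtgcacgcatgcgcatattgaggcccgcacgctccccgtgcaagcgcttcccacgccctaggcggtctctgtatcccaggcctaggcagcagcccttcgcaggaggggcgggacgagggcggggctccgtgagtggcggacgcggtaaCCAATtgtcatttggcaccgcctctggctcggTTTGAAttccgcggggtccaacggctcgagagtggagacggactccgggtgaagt
Cdc20, chr4:118437294-118437593, minus strand: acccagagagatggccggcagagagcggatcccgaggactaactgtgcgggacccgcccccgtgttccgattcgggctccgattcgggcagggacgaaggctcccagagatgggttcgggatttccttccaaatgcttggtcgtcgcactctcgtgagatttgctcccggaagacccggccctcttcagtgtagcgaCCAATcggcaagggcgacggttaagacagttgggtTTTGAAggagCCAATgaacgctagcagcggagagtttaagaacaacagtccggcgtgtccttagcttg
Cdk1, chr10:69352863-69353162, minus strand: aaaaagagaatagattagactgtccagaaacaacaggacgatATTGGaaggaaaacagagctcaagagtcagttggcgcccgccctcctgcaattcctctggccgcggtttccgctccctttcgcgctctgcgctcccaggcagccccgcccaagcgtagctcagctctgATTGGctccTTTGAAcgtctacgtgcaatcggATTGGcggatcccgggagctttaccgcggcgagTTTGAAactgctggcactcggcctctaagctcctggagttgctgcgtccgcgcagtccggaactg
The first base of TTTGAA lay 5 bases before the start in Prc1, 18 before it in Cdc20, and 71 and 15 before it in Cdk1.

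Mean levels of mitosis genes in aSMA ablated liver lay between those of healthy and CCl4 liver. All 21 measured members were lower in aSMA ablated than in CCl4 liver, with a median difference of -1.03. None passed after adjustment, and 19 of 21 had an unadjusted p under 0.05, against 6.31% of all features that were lower at that level and 4.78% that were higher. Prc1 lay at 10.06 to 11.82 on the 6 CCl4 arrays, a range that ablated array 2 reached, and differed by -1.18 (95% interval -2.21 to -0.16). Cdk1 lay at 8.26 to 10.13 in CCl4 liver and differed by -1.11 (95% interval -1.80 to -0.41). The CCl4 group was mixed, with Y-linked signal on arrays 5 and 6 and a high Alb probe, described below, on arrays 4 to 6. All 3 aSMA ablated arrays lacked the first and were high in the second. Differences from CCl4 liver given in this report include any effect of these splits, which is not separated here. Between aSMA ablated and CCl4 liver, 1 of 13092 features (0.00764%) passed.

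That feature was Bex3, a small adaptor protein. Bex3 measured 6.76, 6.83, 6.74 and 6.69 in healthy liver, 7.98, 8.02 and 7.86 in aSMA ablated liver and 8.43 to 8.78 in CCl4 liver. The 3 groups did not overlap. Bex3 rose by 1.20 over healthy (SE 0.11, adjusted p = 7.88e-06) and lay 0.72 below CCl4 liver (adjusted p = 0.0339). The call against CCl4 liver was fragile. No feature, and so not Bex3, passed in that comparison when any 1 aSMA ablated array was left out. The same held at a common upper quartile and with a normexp offset of 16.

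**Figure D3:**
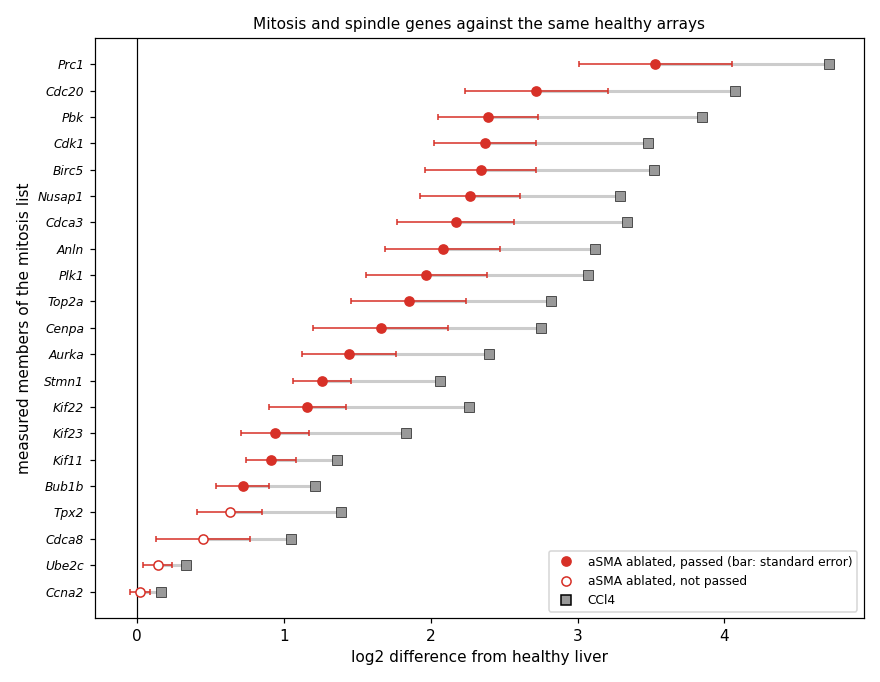
Log2 difference from healthy liver of the 21 measured mitosis and spindle genes, in aSMA ablated liver (circles, filled where the gene passed, with the standard error) and in CCl4 liver (squares). Both differences share the same 4 healthy arrays; every square lies to the right of its circle.

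DNA replication genes were higher in part. Of 26 measured members 9 rose and none fell, with a median of 0.45, against 21 that rose in CCl4 liver. With the Y-linked block 4 rose, with arrays centred on their medians 20 and on the deposited scale 22. All 26 were lower than in CCl4 liver (median -0.63), 22 of them at an unadjusted p under 0.05 and none after adjustment. Uhrf1, which maintains DNA methylation at the fork, measured 5.92, 5.81, 6.19 and 6.21 against 7.69, 8.88 and 8.16 and rose by 2.21 (SE 0.29, adjusted p = 0.000119). Mcm6, a subunit of the replicative helicase, measured 5.70, 5.76, 5.98 and 6.06 against 6.83, 8.31 and 7.57 and rose by 1.70. In both genes array 2 was the highest. Its partner Mcm2 differed by 0.56 (adjusted p = 0.0878) and Pcna, the sliding clamp, by 0.09 (adjusted p = 0.678), neither passing.

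Among 17 measured p53 targets 6 rose and 2 fell, against 3 and 1 with the Y-linked block and 12 and 0 on the deposited scale. Cdkn1a, the cell cycle inhibitor p21, measured 8.30, 7.11, 6.76 and 6.53 against 9.71, 9.29 and 9.31 and rose by 2.26 (SE 0.54, adjusted p = 0.00726), without passing in the Y-linked block (2.01, adjusted p = 0.143). Phlda3, an inhibitor of Akt signalling induced by p53, rose by 1.81 (SE 0.17, adjusted p = 9.38e-06). Of 13 immediate early genes, which respond to stimulation within minutes, 2 rose, against 0 by limma with the Y-linked block, 1 without aSMA ablated array 3 and 7 on the deposited scale. Egr1 measured 7.72, 7.30, 7.56 and 7.40 against 10.02, 11.02 and 12.95, and rose by 3.84 (SE 0.96, adjusted p = 0.00969) with a wide spread among the ablated arrays and a value of 1.17 (adjusted p = 0.572) in the Y-linked block. Without aSMA ablated array 3 Egr1 did not pass (3.03, adjusted p = 0.0571). Klf6, a zinc finger factor of the same class, rose by 2.32 and did not pass with the Y-linked block (1.69, adjusted p = 0.0705). Stress programmes of the endoplasmic reticulum (2 of 17 rose) and of NRF2 and metallothioneins (1 of 11 rose and 1 fell) stayed near the share of all features, against 11 and 9 that rose on the deposited scale.

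Macrophage transcripts were higher than in healthy liver. Of 16 measured monocyte and macrophage markers 12 rose and none fell, with a median of 1.20. Laptm5, a lysosomal protein of blood cells, measured 9.33, 9.87, 9.46 and 9.30 against 11.47, 11.00 and 11.03 and rose by 1.68 (SE 0.18, adjusted p = 3.05e-05). Adgre1, the macrophage antigen F4/80, rose by 0.84 (SE 0.19, adjusted p = 0.00559; adjusted p = 0.329 with the Y-linked block). Of 10 markers of resident Kupffer cells 1 rose and 1 fell, against 9 that rose on the deposited scale and with arrays centred on their medians. With the Y-linked block none of the 10 passed in either direction. Clec4f, a lectin of Kupffer cells, lay at 9.24 to 9.53 against 8.91 to 9.59, and Timd4, their phosphatidylserine receptor, at 6.67 to 6.93 against 6.35 to 6.89, so both overlapped and did not pass (-0.17 and -0.14). The Kupffer marker that rose, Vsig4 (0.78, adjusted p = 0.0397), was at -0.01 in the Y-linked block and kept its call in 13 of 22 alternative settings. Leaving out any 1 array other than healthy array 1 ended it (0.71 to 0.89).

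Genes of scar-associated, lipid-handling macrophages were among those that rose most. Of 13 measured members 8 rose and none fell. Gpnmb, a lysosomal glycoprotein, measured 5.84, 10.95, 5.93 and 6.03 in healthy and 11.96, 11.78 and 12.05 in aSMA ablated liver. The ablated arrays lay close together, whereas healthy array 2 stood far above the other 3 healthy arrays. The gene rose by 4.74 (SE 1.02, adjusted p = 0.00417), and by 6.0 without healthy array 2. Trem2, a lipid receptor of these cells, measured 6.14, 7.39, 6.21 and 5.93 against 8.93, 8.62 and 8.78, again with healthy array 2 the highest, and rose by 2.36 (SE 0.42, adjusted p = 0.00133). Cd63, a tetraspanin of lysosomes and exosomes, rose by 3.47 and Cd9, another tetraspanin, by 1.38 (1.07 with the Y-linked block, adjusted p = 0.142).

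Antigen presentation genes rose in 6 of 10 members, a count that was 2 without aSMA ablated array 1, 2 without healthy array 3, 3 without healthy array 2 and 2 with the Y-linked block. H2-Ab1, an MHC class II chain, measured 8.50, 8.58, 8.04 and 8.28 against 10.08, 9.52 and 9.82 and rose by 1.46 (SE 0.31, adjusted p = 0.00373). Cd74, the class II invariant chain, rose by 1.21 (adjusted p = 0.0299), losing the call in 8 of 22 alternative settings, among them the Y-linked block (1.32, adjusted p = 0.167) and the fits without aSMA ablated array 1 or 3 or healthy array 2, 3 or 4 (0.98 to 1.23). Of 10 neutrophil markers 5 rose (2 without aSMA ablated array 1, 1 with the Y-linked block and 10 on the deposited scale), among them S100a8 (1.88, adjusted p = 0.0256; 0.46 with the Y-linked block), for which healthy array 1 was high at 9.23. S100a8 lost its call without aSMA ablated array 1 or 3 or healthy array 2, 3 or 4 (1.58 to 1.86). Of 25 interferon response genes 7 rose (4 with the Y-linked block and 22 on the deposited scale), with Oas1g, an antiviral synthetase, at 2.16 and Usp18, which removes ISG15, at 1.67. None of 11 T and NK cell markers passed by limma, against 5 that rose on the deposited scale, where 8627 of 13092 features rose. Of 22 endothelial markers 2 rose and 1 fell (1 and 1 with the Y-linked block), against 19 that rose on the deposited scale and 17 with arrays centred on their medians. Lyve1, the hyaluronan receptor of sinusoidal endothelium, rose by 1.45 while Kdr, the VEGF receptor, fell by 0.49 (2.22 and -0.76 with the Y-linked block).

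Hepatocyte genes known from injury, fetal liver and tumours held the largest rise among features with a gene symbol, that of Ly6d. Of 18 measured members 12 rose and none fell, with a median of 1.37. Ly6d, a small membrane-anchored surface protein first known from lymphocytes, measured 5.77, 5.76, 5.97 and 5.89 in healthy and 10.68, 11.68 and 11.09 in aSMA ablated liver. It rose by 5.30 (SE 0.47, adjusted p = 7.81e-06), which is 39.4-fold, and by 4.23 (adjusted p = 0.0013) in the Y-linked block. Golm1, a Golgi membrane protein known to be raised in human liver disease, measured 6.90, 6.85, 6.23 and 6.34 against 9.71, 11.07 and 10.32 and rose by 3.79 (SE 0.28, adjusted p = 1.55e-06). Gpc3, a glypican of fetal liver, measured 6.24, 6.36, 5.92 and 6.15 against 9.27, 9.16 and 9.57 and rose by 3.16 (SE 0.37, adjusted p = 5.17e-05). Afp, the fetal plasma protein alpha-fetoprotein, measured 5.73, 5.76, 5.79 and 5.88 against 8.46, 8.23 and 8.38 and rose by 2.57 (SE 0.33, adjusted p = 0.000123). None of these 4 genes overlapped between groups, and Gpc3 and Afp varied little among the ablated arrays. Spink1, a secreted protease inhibitor, rose by 4.16 (SE 0.40, adjusted p = 1.18e-05). Lcn2, a secreted iron-scavenging protein of the acute phase, overlapped because healthy array 1 was at 13.01 and the other healthy arrays at 7.94 to 8.14, against 12.71, 13.88 and 13.53 on the ablated arrays. It passed at 4.11 (SE 0.92, adjusted p = 0.00513), and not with the Y-linked block (3.74, adjusted p = 0.111).

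Annexins, S100 proteins and galectins, calcium- or sugar-binding proteins raised in many injured epithelia and macrophages, rose in 13 of 20 measured members, with a median of 1.32. S100a11 measured 8.38, 8.34, 8.31 and 7.90 against 11.41, 12.62 and 11.95 and rose by 3.76 (SE 0.37, adjusted p = 1.45e-05). Anxa2, which binds membranes and plasminogen activators, measured 8.99, 9.33, 9.14 and 8.98 against 11.95, 12.81 and 11.80 and rose by 3.08 (SE 0.36, adjusted p = 5.14e-05). Lgals3, a galectin of macrophages, measured 7.81, 10.06, 8.03 and 7.78 against 11.88, 11.73 and 11.99 and rose by 3.45 (SE 0.53, adjusted p = 0.000422), with healthy array 2 again apart from the other 3. Krt8 and Krt18, the keratin pair of hepatocytes and bile ducts, rose by 1.25 and 0.95, and neither passed with the Y-linked block (adjusted p of 0.216 and 0.236), nor did Krt18 without aSMA ablated array 2 (0.74, adjusted p = 0.0535). Sox9, a factor of bile duct and progenitor cells, did not pass (0.58, adjusted p = 0.0946; 0.07 with the Y-linked block).

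**Figure D4:**
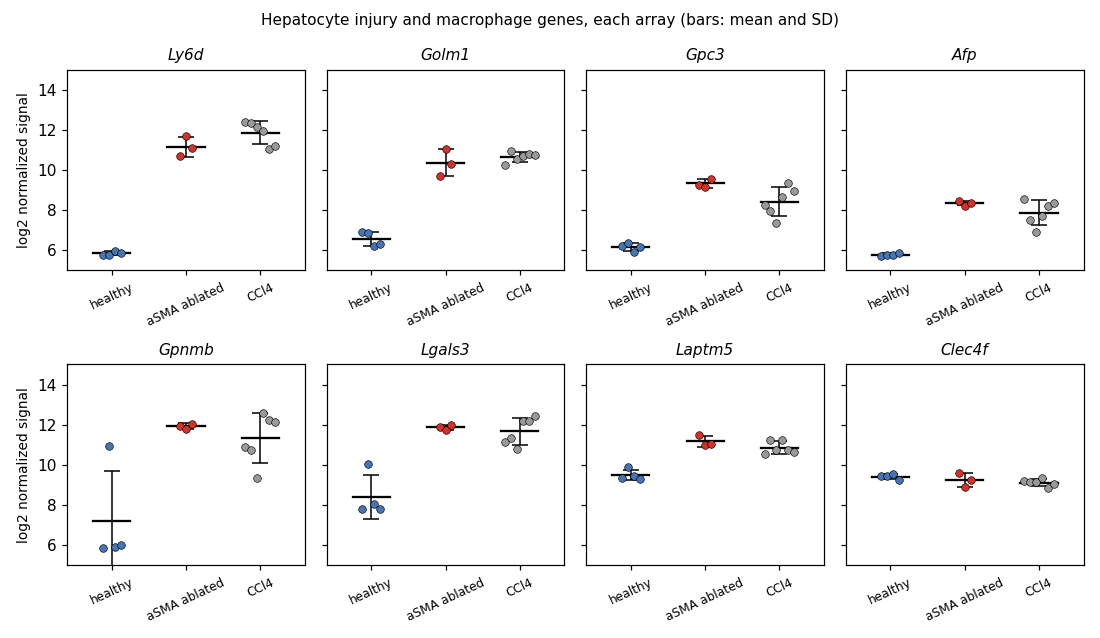
Log2 normalized signal of 4 hepatocyte injury genes (Ly6d, Golm1, Gpc3 and Afp), 3 genes of macrophages (Gpnmb, Lgals3 and Laptm5) and the Kupffer cell marker Clec4f on each healthy, aSMA ablated and CCl4 array, with group means and standard deviations. The ablated arrays lie above every healthy array in each panel but that of Clec4f; healthy array 2 is high in Gpnmb and Lgals3.

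Pericentral hepatocyte genes split. Of 19 measured members 4 fell and 1 rose, with a median of -0.64, against 10 that fell in CCl4 liver. Under other scalings the median was -0.99 to 0.18, above 0 on the deposited scale, with 3 to 6 members lower. Slc1a2, a glutamate transporter of the cells next to the central vein, measured 10.79, 10.42, 10.45 and 10.74 in healthy and 5.79, 5.81 and 5.76 in aSMA ablated liver. It fell by 4.81 (SE 0.35, adjusted p = 1.53e-06), with the ablated arrays close to the lowest signals measured, and was at -4.84 with the Y-linked block. Oat, the ornithine aminotransferase of the same zone, measured 13.87, 13.64, 13.58 and 13.75 against 10.65, 10.12 and 10.61 and fell by 3.25 (SE 0.49, adjusted p = 0.000392). Glul, the glutamine synthetase that marks this zone, measured 7.18, 7.36, 6.27 and 7.12 against 5.85, 5.83 and 5.86 and fell by 1.14 (SE 0.21, adjusted p = 0.00149). The ammonium transporter Rhbg fell by 1.15 (adjusted p = 0.00422; adjusted p = 0.0682 with the Y-linked block).

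Cyp2e1, the main enzyme that activates CCl4, measured 14.53, 14.59, 14.55 and 14.65 against 14.16, 13.47 and 14.19. Its groups did not overlap, but the difference of -0.64 (SE 0.46) did not pass (adjusted p = 0.347), and in CCl4 liver it ranged from 11.71 to 13.87. Cyp1a2, another pericentral cytochrome, was at -1.39 (adjusted p = 0.202). Both results depended on the fit. With the Y-linked block Cyp2e1 was at 0.46 and Cyp1a2 at -0.15, neither passing. With the Alb probe signal, described below, as a block, they were at -2.13 and -3.15 and passed (adjusted p of 0.00473 and 0.0297). Slc1a4, a neutral amino acid transporter, was the member that rose (1.55, adjusted p = 0.00105). Periportal and urea cycle genes had 3 of 18 members higher and 1 lower, against 1 and 1 with the Y-linked block, 6 higher without healthy array 1 and 13 on the deposited scale. Aldh1b1, a mitochondrial aldehyde dehydrogenase, measured 8.75, 8.75, 8.39 and 8.22 against 11.20, 11.72 and 11.24 and rose by 2.86 (SE 0.46, adjusted p = 0.00062). Sult5a1, a sulfotransferase, measured 8.14, 9.68, 8.94 and 9.04 against 6.10, 5.90 and 5.84 and fell by 3.0 (SE 0.32, adjusted p = 2.76e-05).

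Calls in the core hepatocyte programme were in part near the share of all features, of which 11.0% rose and 11.3% fell. Of 25 secreted proteins and apolipoproteins 3 rose (12%) and 1 fell (4%). Among 14 hepatocyte transcription factors 2 fell (14.3%) and none rose, and of 33 respiratory chain genes none passed by limma. These counts depend on scaling: with a common upper quartile 14 secreted protein genes and 11 respiratory chain genes were lower, and on the deposited scale 22 and 30 were higher, with 10 of the transcription factors. Hnf4a, the master regulator of hepatocytes, lay at 11.40 to 12.03 against 11.74 to 12.00. Apoa4, a lipid-carrying apolipoprotein, measured 9.79, 10.69, 10.01 and 9.99 against 13.31, 13.30 and 13.32 and rose by 3.19 (SE 0.29, adjusted p = 7.81e-06). Its 3 ablated arrays were almost level. Lpl, the lipase of blood lipoproteins, which adult hepatocytes hardly express, rose by 3.46 (SE 0.31, adjusted p = 7.88e-06). Pkm, the pyruvate kinase of growing cells and macrophages, rose by 2.14, and Dio1, which activates thyroid hormone, fell by 3.12 (SE 0.56, adjusted p = 0.00133).

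The Alb probe kept by the filter parted the arrays in another way. It measured 6.08 to 6.58 in healthy liver and 8.73, 9.17 and 8.83 in aSMA ablated liver, a rise of 2.60 (SE 0.62, adjusted p = 0.0072; 4.67 with the Y-linked block), while Apoa1 and Ttr differed by -0.09 and -0.01. On these 7 arrays the probe read far below Apoa1 and Ttr. Whether the probe follows the amount of albumin RNA was not tested, so its rise is not read as a rise of albumin. CCl4 arrays 4, 5 and 6 had it at 8.56 to 9.24, CCl4 arrays 1, 2 and 3 at 6.25 to 6.41, and the FSP1 ablated arrays at 6.21 to 6.48. Within the 7 arrays this signal and the group cannot be told apart. On the CCl4 arrays the split by this probe went in part with the Y-linked signal. A fit with this split as a block called 2395 features, 1437 of them also called in the same direction without it. Among genes described above, Gpnmb (2.73, adjusted p = 0.181), Trem2 (1.08, adjusted p = 0.104), Mmp12 (adjusted p = 0.25), Mmp13 (adjusted p = 0.34), H2-Ab1 (adjusted p = 0.2), Cd74 (adjusted p = 0.487) and Oas1g (adjusted p = 0.119) did not pass in it. Nor did Col3a1 (0.80, adjusted p = 0.162), Vim (1.37, adjusted p = 0.0507), Loxl1, Serpinh1, Lrat, Cnn2, Lyve1 and Kdr (adjusted p of 0.0513 to 0.332). The same fit newly called 8 named genes. Cyp2e1 and Cyp1a2 were lower in it (-2.13 and -3.15), and Ccn2, Sox9, Mcm2, Cdca8, Tpx2 and Ube2c were higher. By gene list, 1 of 10 antigen presentation genes, 2 of 25 interferon genes, 3 of 15 proteases and inhibitors, 4 of 13 scar-associated macrophage genes and 3 of 13 stellate markers rose in that fit, and 20 of 21 mitosis genes, 16 of 26 replication genes and, among pericentral genes, 8 of 19 that fell.

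Among the largest falls were genes with sex-biased expression in mouse liver, several of which followed the sex-linked transcripts. Of 16 measured male-biased genes 11 fell and none rose, with a median of -2.29, and of 13 female-biased genes 5 rose and none fell. In the Y-linked block 7 male-biased genes fell and 1 female-biased gene rose. Cyp4a12a, a male-specific fatty acid hydroxylase, measured 12.78, 12.82, 12.91 and 13.12 in healthy and 6.05, 5.81 and 5.89 in aSMA ablated liver. It fell by 6.99 (SE 1.20, adjusted p = 0.00103), 127-fold. On the CCl4 arrays it lay at 6.43 to 6.78 where Eif2s3y was low and at 12.13 and 11.63 where Eif2s3y was high, and with the Y-linked block it fell by 1.69 (adjusted p = 0.000265). Hsd3b5, a male-specific steroid enzyme, fell by 6.66 and by 2.83 with the block. Mup20, a pheromone-carrying urinary protein whose gene family has near-identical copies that a probe may not part, fell by 4.90 and was at -0.92 with the block (adjusted p = 0.402).

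The female-biased cytochromes ran the other way. Cyp2b9 measured 8.28, 5.77, 6.53 and 6.81 against 11.89, 11.11 and 11.56, a rise of 4.68 (SE 1.06, adjusted p = 0.00564), and Cyp4a14 rose by 4.70. On CCl4 arrays 5 and 6 Cyp2b9 lay at 7.27 and 7.04, and on CCl4 arrays 1 to 4 at 11.31 to 11.81. With the Y-linked block the 2 genes were at 0.33 and 1.26 without passing (adjusted p of 0.791 and 0.12). The complement gene C6 and the acetyltransferase Nat8, both among the 15 largest falls, fell by 3.20 and 3.10 and were at -0.67 and -0.71 with the block, without passing.

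Other male-biased genes lay below all healthy arrays on CCl4 arrays 5 and 6 as well. Cyp7b1, an oxysterol hydroxylase, measured 13.68, 13.81, 13.52 and 13.51 against 8.47, 8.09 and 7.87, and lay at 11.43 and 11.36 on CCl4 arrays 5 and 6, below all healthy arrays. It fell by 5.49 (SE 0.66, adjusted p = 6.65e-05). With the block the fall was smaller, at -2.78 (adjusted p = 0.000896). Susd4, a complement inhibitor, measured 9.19, 8.54, 8.68 and 8.49 against 5.89, 5.83 and 5.81, and was at 6.19 and 6.13 on CCl4 arrays 5 and 6. It fell by 2.88 (SE 0.14, adjusted p = 1.69e-08), and by 2.51 with the block. Slc1a2 lay at 5.78 to 5.96 on all 6 CCl4 arrays.

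**Figure D5:**
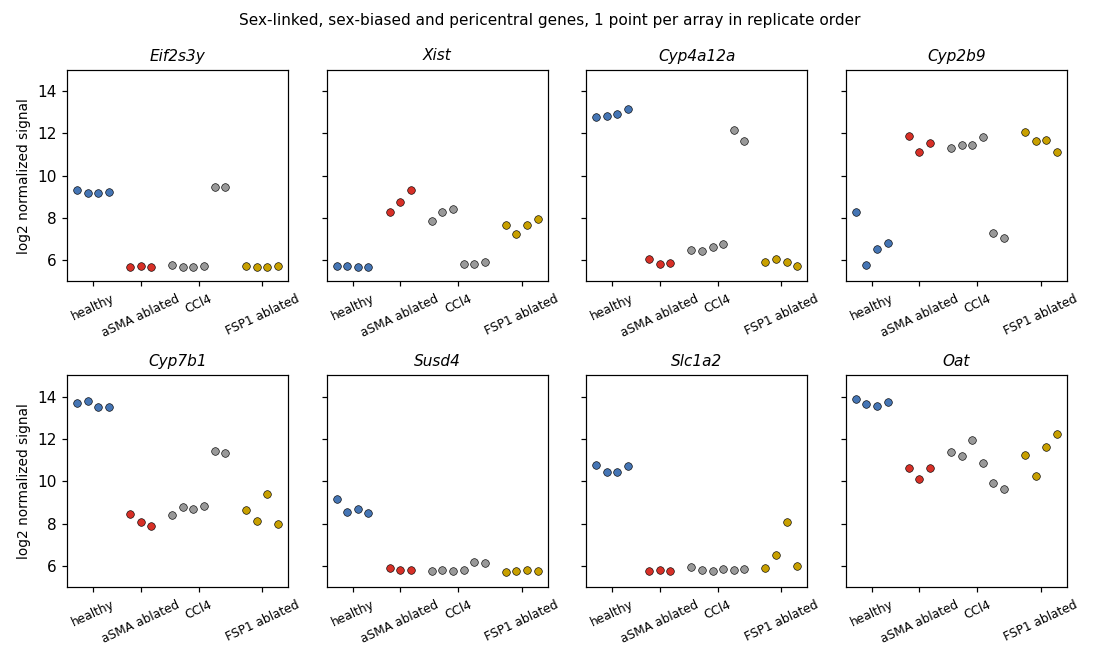
Log2 normalized signal of 8 genes on all 17 arrays, 1 point per array in replicate order within each group. Cyp4a12a and Cyp2b9 split the 6 CCl4 arrays as Eif2s3y does, whereas Susd4 and Slc1a2 are low on all 6; Oat lies below all healthy arrays on every CCl4-treated array.

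The 2 ablations were also compared directly. Against FSP1 ablated liver, 343 features (2.62%) were higher and 246 (1.88%) lower in aSMA ablated liver. Of the lists above, 14 of 21 mitosis genes, 7 of 26 replication genes, 6 of 17 fibrillar matrix genes, 9 of 20 annexin, S100 and galectin genes and 7 of 25 interferon genes were higher, and none of these lists had a lower member. All 3 aSMA ablated and all 4 FSP1 ablated arrays lacked the Y-linked signal, but the Alb probe was high in the first and low in the second, so that split and the ablation cannot be told apart between them. The 589 calls fell to 106 without aSMA ablated array 2, 241 without array 3 and 322 without array 1. Col1a1 lay at 6.36 to 7.29 on the FSP1 ablated arrays, below all 3 aSMA ablated arrays, and was 2.02 higher in aSMA ablated liver (adjusted p = 0.00923). Prc1 was 2.35 higher (adjusted p = 0.0219), Pcolce 1.40 higher (adjusted p = 0.00331) and Lgals1, a galectin, 2.17 higher (adjusted p = 0.00052). Ly6d and Reln, which differed by -0.49 and 0.70, did not pass (adjusted p of 0.619 and 0.158). Acta2 differed by 0.67 between the ablations (adjusted p = 0.542).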

How the data were processed

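Total liver RNA was labelled as biotin cRNA and hybridized to Illumina arrays, 1 colour, per the labels' protocols. The authors deposited an intensity per probe and array. GenomeStudio is named in the submitters' processing notes without a version, and its normalization is not given in the sources used here. A further 34 columns of the non-normalized table matched no label and were not used.

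From the deposited intensity, each array's background was taken as the mode of its values with the spread below it, corrected by normexp (offset 50), quantile-normalized over 17 arrays and put on the log2 scale. Probes above the 95th percentile of background on at least 3 arrays were kept, 17802 of 25697, with 1 probe per gene, that of highest mean. Symbols came from GEO's platform annotation: 23978 probes had 1 symbol, 1719 none and 0 several. limma 3.58.1 (R 4.3.3) fitted group means over all 17 arrays, and p-values were adjusted by Benjamini-Hochberg over 13092 features at 0.05. The number of arrays limits the precision. Where a group was below background on all its arrays, folds are bounds from the lowest signal above background.

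The members, the 58 gene lists and the tests were chosen with earlier results of these data known. Named genes were the 15 largest rises and falls that passed without overlap, the key members of each list with up to 5 more by smallest p, and Acta2, S100a4 and Alb. Simulated data held 200 changed probes, raised and lowered in equal number. The fit recovered 38 of 50 probes lowered by 1 on the log2 scale and 40 of 50 raised by 1, and called 10 of 15908 unchanged ones. Probes lowered by 2 came back at a median of -1.47. The simulation held far fewer changes than were called in the data and no split by sex-linked or Alb signal. It therefore does not measure how many calls in the data are false.

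Same-numbered healthy and aSMA ablated arrays had deviations correlated at -0.043, -0.005 and 0.083, against -0.273 to 0.21 for arrays with unlike numbers. No pairing by number was seen, but 3 pairs are too few to exclude it.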

Additional observations from a re-analysis of the deposited data

Results flagged for a closer look

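Each gene named in the text, 118 in all, was checked for a healthy array that stood apart from the other 3 by Dixon's test, which chance meets in about 1 in 20 groups. It was met by 15 genes, 7 of them with healthy array 1.

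Healthy array 2 was the highest in 5 macrophage or matrix genes, Gpnmb at 10.95, Lgals3 at 10.06, Mmp12 at 7.91, Loxl1 at 7.41 and Cd9 at 8.58. Healthy array 1 was the highest in Lcn2 at 13.01, S100a8 at 9.23, Klf6 at 8.06, Dcn at 12.12 and Nid1 at 7.36, and the lowest in Dio1 at 7.29 and Actn1 at 8.93. Healthy array 3 was the highest in Cygb at 8.35. Healthy array 4 was the highest in Lrat at 6.06 and the lowest in S100a11 at 7.90. What set these arrays apart was not tested.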

How the results depend on the processing

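The count of 2909 features (1434 higher, 1475 lower) moved most with between-array scaling. It was 8680 (8627 and 53) on the deposited scale, 7529 (6501 higher) centred on medians and 1887 (864 lower) with cyclic loess, and 2524 were lower at a common upper quartile. Array weights gave 4710 (2218 and 2492), and the Y-linked block 1382 (742 and 640). Leaving out 1 array gave 1640 to 3538 (917 to 1744 higher, 723 to 1794 lower), the lowest without aSMA ablated array 2. With the replicate block 2641 passed, 2428 of them called in the same direction without it. The Alb probe block, chosen after seeing the data, gave 2395. The other alternatives stayed within 1.5 times.

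Between aSMA ablated and CCl4 liver 1 feature passed, against 1621 with array weights, 214 with the Y-linked block, 21 with the replicate block and 0 to 8 otherwise. Against FSP1 ablated liver 589 passed, against 2501 with array weights, 390 with no filter, 325 with the Alb block and 106 to 682 on leaving out 1 array, the lowest without aSMA ablated array 2.

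Signs turned on the deposited scale and with median centring in Apoa1 (0.67 and 0.47), Clec4f (1.0 and 0.80), Timd4 (0.61 and 0.41), Ttr (0.77 and 0.57) and Amy2a5 (0.37 and 0.17), on the deposited scale in Des (0.68), and with the Y-linked block in Eif2s3y (0.23) and Vsig4 (-0.01). Genes that did not pass also turned elsewhere: Acta2 with the Y-linked block (-0.02) and without aSMA ablated array 2 (-0.16), Cyp2e1 with that block (0.46) and on the deposited scale (0.12), Hnf4a at a common upper quartile (-0.29), Cdca8 with the Y-linked block (-0.33), Col1a2 and Pcna with the Alb block (-0.09 and -0.11), and S100a4 on the deposited scale (0.13). Ccna2, Des, Myh11, Tagln, Timd4 and Ttr, all within 0.15 of 0, changed sign in several settings. Replicate numbers as a block left 2 of 10 antigen presentation genes higher. Of 96 named genes that passed, 62 still passed with the Y-linked block and 78 with the Alb block. Beyond scaling and blocks that change by construction, the cause was not tested. Signals near background limit what dim probes can show.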

Other observations

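The fall with the smallest adjusted p among all 13092 features was that of Rnase2a, a gene of the eosinophil-associated ribonuclease family, named after its values were seen. Rnase2a measured 8.63, 8.10, 8.44 and 8.30 on the healthy arrays and was above background on none of the 3 aSMA ablated arrays, where it lay at 5.70, 5.76 and 5.73, at least 5.92-fold lower (adjusted p = 1.45e-10). It lay at 5.69 to 5.86 on the 6 CCl4 arrays, including arrays 5 and 6, which carried the Y-linked signal, and at 5.72 on the 4 FSP1 ablated arrays.

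Cyp2c55, a cytochrome of the drug-metabolizing family, rose by 2.21 (SE 0.28, adjusted p = 9.54e-05), measuring 6.85, 6.09, 6.91 and 6.58 against 8.57, 9.11 and 8.79. Fitm1, a lipid droplet protein, measured 7.26, 6.84, 8.82 and 8.78 in healthy liver and was above background on no aSMA ablated array, at least 4.36-fold lower (adjusted p = 0.000702). Alas2, the heme synthesis enzyme of red cell precursors, fell by 2.87 (SE 0.62, adjusted p = 0.00447) and was at -0.45 with the Y-linked block (adjusted p = 0.594). Hamp, the iron hormone hepcidin, measured 13.42 to 13.46 on the 4 healthy arrays and 11.66, 12.88 and 12.61 on the ablated arrays, and fell by 1.06 (SE 0.30, adjusted p = 0.0195; adjusted p = 0.178 with the Y-linked block, and -0.69, adjusted p = 0.111, without aSMA ablated array 1).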
